A study of Mus musculus with 12 samples.

Results

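The expression of 8 genes known from T cells and natural killer (NK) cells was followed across 12 lines of Ba/F3. These mouse cells are labelled pro-B and grow only when given the cytokine interleukin-3 (IL-3) or an oncogene that replaces it. Cd3g, Cd3e and Cd247 encode signalling chains of the T cell receptor complex, and Cd5 encodes a T cell surface receptor. Tcf7, Lef1 and Gata3 encode transcription factors of the T lineage, and Gzmb encodes granzyme B, a cytotoxic protease. The genes were chosen by symbol, and 8 of 8 were matched to a row among the 55471 genes of the count table. There were 3 groups of 4 lines, which the labels call biologically independent. The MSCV group held an empty retrovirus and was kept in murine IL-3 at 0.5 ng/ml. The other groups expressed BCR-ABL1 or SFPQ-ABL1, each an ABL1 kinase joined to another protein, and were kept free of IL-3, so the fusion and the absence of IL-3 cannot be told apart in a comparison with MSCV. Both fusion groups lacked IL-3, and their comparison with each other does not hold that difference. All lines derive from 1 immortal cell line.

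As background, the CD3 proteins and the zeta chain (Cd247) join the antigen-binding T cell receptor chains and pass its signal to kinases through tyrosine motifs in their tails. TCF-1 (Tcf7), LEF-1 (Lef1) and GATA3 guide precursors into the T lineage, and TCF-1 and LEF-1 also act with beta-catenin in Wnt signalling. Granzyme B is stored in the granules of cytotoxic T cells and NK cells, is also known from other blood cells, and cleaves proteins of a target cell after perforin lets it in.

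Total gene counts ran from 59355018 to 80616227 per line, so a level of 1 CPM (counts per 1000000 counts of the effective library) stood for 61.1 to 82.2 counts. Exon 9 of Abl1, in the part of ABL1 that both fusions keep, served as a check of the labels. It had 0.0454 to 0.0529 exon CPM (scaled to the total gene counts) in the MSCV lines, 9.23 to 20.8 in the BCR-ABL1 lines and 4.36 to 26.8 in the SFPQ-ABL1 lines. SFPQ-ABL1 line 2 stood apart with the 4.36, against 17.8 or more in the other SFPQ-ABL1 lines, and BCR-ABL1 line 4 had the 20.8, against 11.8 or less in the other BCR-ABL1 lines. Over the whole Abl1 gene the groups lay closer, at 81.6 to 106 CPM in MSCV, 108 to 124 in BCR-ABL1 and 104 to 134 in SFPQ-ABL1 lines. Exon 9 of Abl1 does not tell BCR-ABL1 from SFPQ-ABL1. Bcr exon 1 had 1.33 to 2.64 exon CPM in BCR-ABL1 lines and at most 0.304 in the others. Sfpq exon 9 had 4.39 to 20.0 in SFPQ-ABL1 lines and at most 3.60 in the others. Of 22 early B-lineage markers, Cd79a averaged 64.7 CPM and Ptprc 319 CPM over the 12 lines, while Blnk, Dntt, Rag1, Rag2, Il7r, Cd24a and Ms4a1 had at most 3 counts in any line. The pro-B label was thus met by some of its markers and not by others.

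The level of the genes differed widely. The mean over the 12 lines was 60.2 CPM for Gzmb, which placed it at percentile 75.9 of the 17197 genes tested, so Gzmb was not a gene of low level. Cd3g followed with 3.53 CPM, Tcf7 with 0.976, Cd5 with 0.389 and Cd247 with 0.230. These 5 genes passed the filter on low counts, which asked for 0.136 CPM, about 10 counts, in 4 lines. Cd3e had 44 counts over all lines, Gata3 had 21 and Lef1 had 1, and none of these 3 passed. Cd247 and Cd5 had 0 BCR-ABL1 lines at or above 0.136 CPM and Tcf7 had 1, so those 3 genes passed through their MSCV and SFPQ-ABL1 lines, and a count over the genes that passed is given below as a description.

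**Figure D1:**
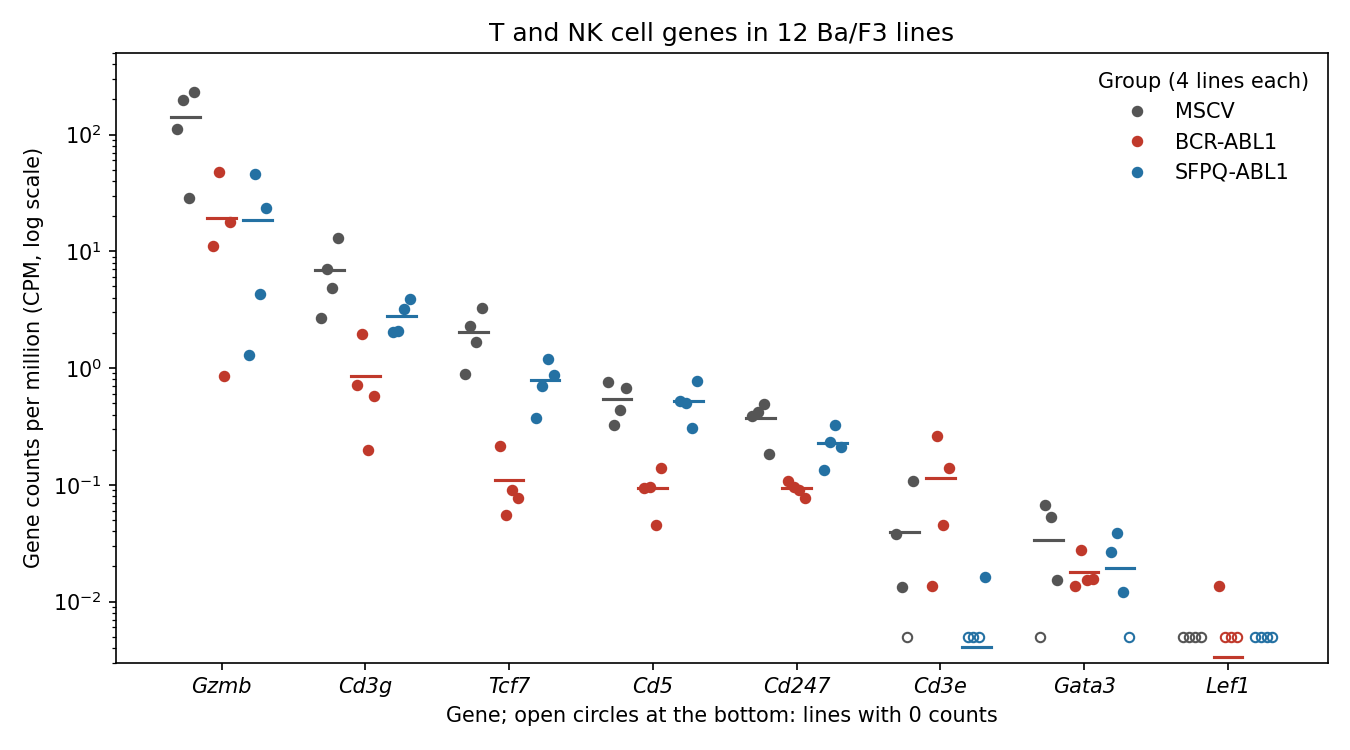
Level of the 8 genes in each of the 12 lines, in CPM on a log axis. Each filled point is 1 line, bars are group means, and open circles mark lines with 0 counts. Cd3g, Tcf7, Cd5 and Cd247 lie lower in the 4 BCR-ABL1 lines than in any MSCV or SFPQ-ABL1 line, and Gzmb spans 0.850 to 234 CPM.

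Lower levels in the BCR-ABL1 lines were measured for 4 of the 5 tested genes against both other groups. Among all genes tested, 16.3% were called lower in BCR-ABL1 than in MSCV and 13.2% were called higher in SFPQ-ABL1 than in BCR-ABL1. The promoters of the genes with counts on a first exon that no other gene shares are shown here, because Cd3g and Cd5 were among those 4 genes and Gzmb was not. Each window runs from 250 bases before to 50 bases after the RefSeq start on the minus strand of GRCm38.p6. RefSeq held a promoter for 8 of 8 genes. Capitals mark matches on either strand to a set of motif letters. These were GGAAGT for the ETS family and TGTGGT for the RUNX family. For the GATA family they were GATAA, and for E-box proteins CACCTG. The letters searched for AP-1 were TGANTCA and for the cyclic AMP response element (CRE) TGACGT. Those for the TCF/LEF family were CTTTGA, and those for the STAT family TTCNNNGAA.
Gzmb, chr14:56262285-56262584: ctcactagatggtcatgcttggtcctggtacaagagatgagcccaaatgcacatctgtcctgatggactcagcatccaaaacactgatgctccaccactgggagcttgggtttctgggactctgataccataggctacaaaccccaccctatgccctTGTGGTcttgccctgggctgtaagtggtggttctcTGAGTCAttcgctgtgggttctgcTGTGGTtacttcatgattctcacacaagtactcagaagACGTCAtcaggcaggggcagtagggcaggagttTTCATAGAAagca
Cd3g, chr9:44980382-44980681: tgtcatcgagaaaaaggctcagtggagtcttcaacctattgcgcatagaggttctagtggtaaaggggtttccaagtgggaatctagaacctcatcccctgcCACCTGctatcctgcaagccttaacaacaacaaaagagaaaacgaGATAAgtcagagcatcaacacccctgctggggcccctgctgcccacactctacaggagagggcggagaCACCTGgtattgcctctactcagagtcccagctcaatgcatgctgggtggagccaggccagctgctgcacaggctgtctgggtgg
Cd5, chr19:10738925-10739224: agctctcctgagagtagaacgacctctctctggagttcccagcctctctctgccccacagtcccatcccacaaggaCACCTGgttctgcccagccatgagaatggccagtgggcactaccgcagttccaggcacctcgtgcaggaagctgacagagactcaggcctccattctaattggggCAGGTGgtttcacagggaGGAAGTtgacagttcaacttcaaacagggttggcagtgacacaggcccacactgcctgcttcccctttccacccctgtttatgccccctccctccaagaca
The Gzmb window held 2 RUNX matches and 1 match each for AP-1, CRE and STAT, and it lay upstream of the exons annotated by GENCODE (0 of its 300 bases inside one). The windows of Cd3g and Cd5 each held 2 E-box matches, with 1 GATA match in Cd3g and 1 ETS match in Cd5, and 50 and 78 of their bases lay in an annotated exon. No 2 matches overlapped in these windows. Among 32817 RefSeq promoters of the same length, 20.2% held the E-box letters, 25.4% GATA, 23.8% ETS, 16.8% RUNX, 7.81% AP-1, 7.51% CRE, 16.0% TCF/LEF and 8.29% STAT. These matches describe letters in a window and say nothing of binding.

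Cd3g (ENSMUSG00000002033, chromosome 9, 44969572 to 44980431, mm10, minus strand) encodes CD3 gamma. It had 2.69, 7.05, 4.88 and 13.1 CPM in MSCV lines 1 to 4. The BCR-ABL1 lines had 0.714, 1.96, 0.197 and 0.573 CPM, and the SFPQ-ABL1 lines had 2.05, 2.08, 3.20 and 3.89. Every BCR-ABL1 line was below every line of both other groups, while MSCV line 1 lay within the range of the SFPQ-ABL1 lines and the other MSCV lines lay above it. Cd3g fell 7.99-fold in BCR-ABL1 against MSCV (log2 fold change -2.999 ± 0.60 SE, adjusted p = 0.00235, edgeR quasi-likelihood test with Benjamini-Hochberg adjustment over all genes tested). In these bulk libraries fewer cells with a transcript and less of it per cell cannot be told apart. The difference in log2 was -3.80 without BCR-ABL1 line 2, the highest of its group.

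SFPQ-ABL1 lines had 2.80 ± 0.901 CPM of Cd3g (SD, n = 4) against 0.861 ± 0.764 in BCR-ABL1 lines and 6.93 ± 4.48 in MSCV lines. Against BCR-ABL1 this was 3.23-fold higher (log2 1.69 ± 0.58 SE, adjusted p = 0.0483). That call was lost when any of 9 lines was left out, with adjusted p from 0.0504 without SFPQ-ABL1 line 2 to 0.113 without BCR-ABL1 line 4. The 9 were MSCV lines 2 and 3, BCR-ABL1 lines 1, 3 and 4, and each SFPQ-ABL1 line, and without BCR-ABL1 line 2 the difference in log2 was 2.49. Against MSCV the difference in log2 was -1.30 ± 0.56 (adjusted p = 0.236), with overlapping lines. Exon counts covered 6 of the 7 exons of the first-named transcript, with 24 counts on exon 1 and 49 on exon 7 over all lines.

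Cd3e (ENSMUSG00000032093, chromosome 9, 44998740 to 45009627, minus strand) encodes CD3 epsilon, the chain that pairs with gamma and with delta. Its raw counts were 3, 1, 0 and 7 in MSCV lines 1 to 4, 1, 19, 3 and 9 in BCR-ABL1 lines and 0, 0, 0 and 1 in SFPQ-ABL1 lines. The highest counts thus lay in BCR-ABL1 lines, the group in which Cd3g was lowest. In a fit with no filter on low counts Cd3e was lower in SFPQ-ABL1 than in BCR-ABL1 (adjusted p = 0.0163), whereas BCR-ABL1 against MSCV had an adjusted p of 0.320 and SFPQ-ABL1 against MSCV 0.388. The SFPQ-ABL1 group, with 1 count in all, was under the 3 counts that set a floor of 0.0102 CPM for the group, so no fold is given. Exon counts were 2 in all, both on exon 8, where an exon of Gm48719 overlaps.

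Cd3d, the delta chain gene, lies between them and is transcribed away from Cd3g, with 1354 bases between the genes. It had 0.416 ± 0.0414 CPM in MSCV lines, 0.197 ± 0.0813 in BCR-ABL1 lines and 0.412 ± 0.108 in SFPQ-ABL1 lines (SD, n = 4). It fell 2.10-fold in BCR-ABL1 against MSCV (log2 -1.07 ± 0.31 SE, adjusted p = 0.0177) with no overlap between the lines. It was 2.08-fold higher in SFPQ-ABL1 than in BCR-ABL1 (log2 1.06 ± 0.31, adjusted p = 0.0231), and there the lines overlapped. Per kilobase of exon, mean levels in MSCV lines were 2.12 CPM for Cd3g, 0.229 for Cd3d and 0.00972 for Cd3e. In the BCR-ABL1 lines they were 0.263, 0.108 and 0.0281 CPM per kilobase in the same order. Of the genes that flank the cluster, Ube4a had 163, 140 and 176 CPM in MSCV, BCR-ABL1 and SFPQ-ABL1 lines. Its difference between BCR-ABL1 and MSCV did not pass the test (log2 -0.22, adjusted p = 0.0657) and it was higher in SFPQ-ABL1 than in BCR-ABL1 (log2 0.33, adjusted p = 0.0139). Mpzl2, on the Cd3e side, had 31 counts over all lines.

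**Figure D2:**
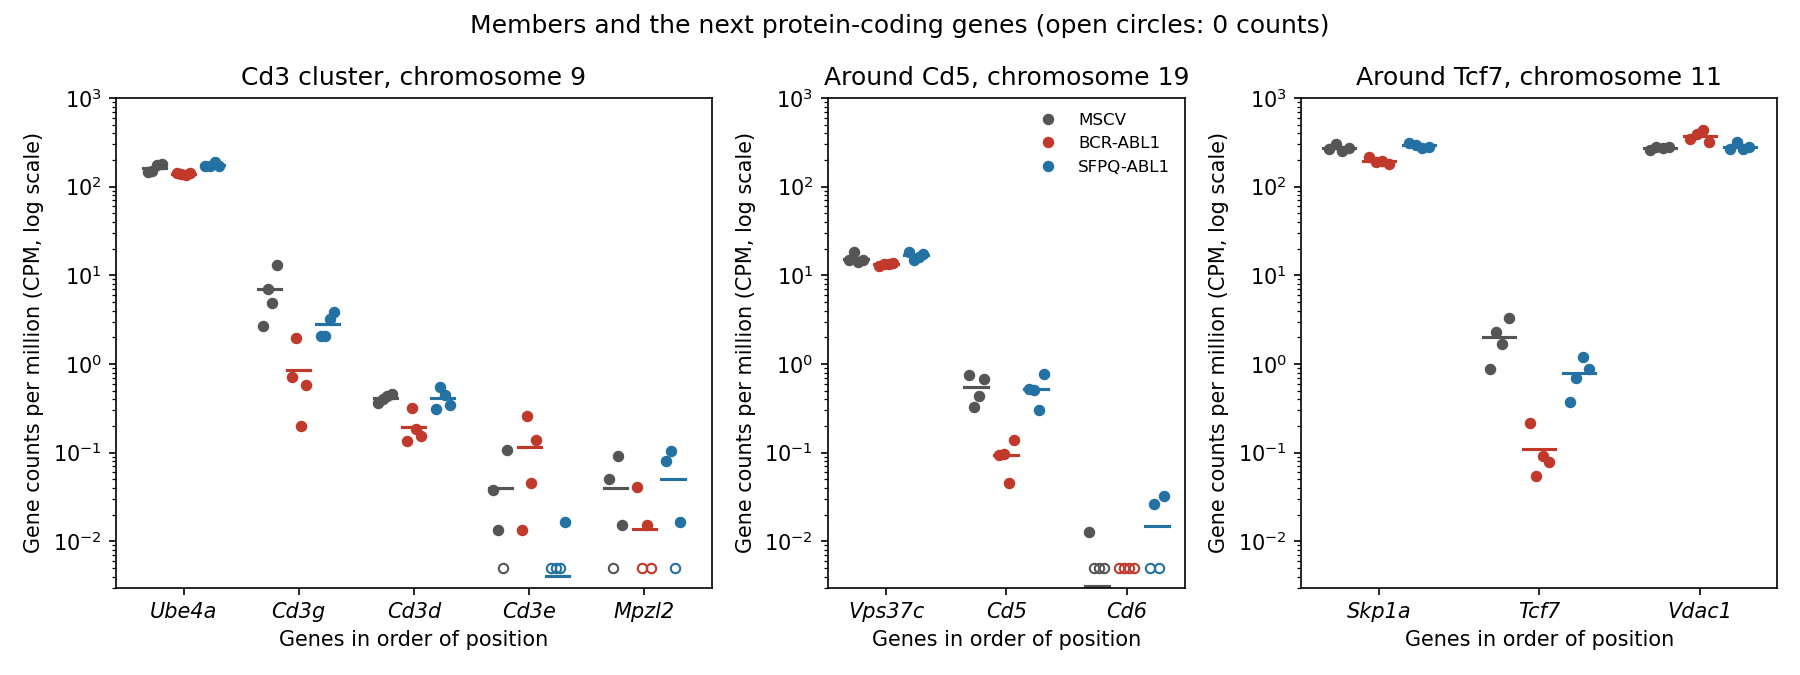
Levels in CPM (log axis) of the Cd3 cluster, Cd5 and Tcf7 with the next protein-coding gene on either side, 1 point per line, with group means as bars and open circles for lines with 0 counts. Cd3g, Cd3d, Cd5 and Tcf7 are lower in BCR-ABL1 lines, while Ube4a, Vps37c, Skp1a and Vdac1 differ by less than 1 log2 unit between groups.

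Cd247 (ENSMUSG00000005763, chromosome 1, 165788681 to 165877277, plus strand) encodes the zeta chain. It had 0.390, 0.417, 0.489 and 0.184 CPM in MSCV lines, 0.108, 0.0959, 0.0911 and 0.0775 in BCR-ABL1 lines, and 0.134, 0.234, 0.328 and 0.213 in SFPQ-ABL1 lines. The BCR-ABL1 lines, with 5 to 8 counts each, were below all others. Cd247 fell 3.92-fold in BCR-ABL1 against MSCV (log2 -1.97 ± 0.38 SE, adjusted p = 0.00164) and was 2.42-fold higher in SFPQ-ABL1 than in BCR-ABL1 (log2 1.27 ± 0.38, adjusted p = 0.0272). The second call was lost with no filter (adjusted p = 0.0546), with limma-voom (0.0569), and when 1 of 4 lines was left out, namely line 2, 3 or 4 of BCR-ABL1 and line 3 of SFPQ-ABL1 (0.0583 to 0.0959).

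The counts of Cd247 may not all come from the zeta chain transcript. Exons 2 to 7 of its first-named transcript had 0 exon counts in all 12 lines, exon 1 had 9 counts and exon 8 had 8. Exons 2 to 7 are 36 to 104 bases long, against 198 for exon 1 and 1063 for exon 8. Exon 2 of Cd3g (24 bases) also had 0. With so few exon counts, 0 on short exons does not tell whether the zeta chain transcript was present. Exon 1 of Cd247 overlaps an exon of Gm16565, a processed transcript on the same strand that is named here for that overlap. Gm16565 had 1.20 ± 0.190 CPM in MSCV lines, 0.489 ± 0.0342 in BCR-ABL1 lines and 0.571 ± 0.262 in SFPQ-ABL1 lines. It fell in BCR-ABL1 against MSCV (log2 -1.30, adjusted p = 0.00391) and its difference between SFPQ-ABL1 and BCR-ABL1 was 0.23 in log2 (adjusted p = 0.595). At the other end 2 annotated exons of Cd247 (165866655 to 165867436 and 165869018 to 165871153) overlap Pou2f1 on the opposite strand. Their summed exon counts exceeded the gene count of Cd247 in 12 of 12 lines, so the gene table left these reads out or gave them to another gene. Pou2f1 rose in BCR-ABL1 against MSCV (27.5 and 37.1 CPM in MSCV and BCR-ABL1, log2 0.43, adjusted p = 0.0265). The part of Gm16565 in the Cd247 result was not tested.

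Cd5 (ENSMUSG00000024669, chromosome 19, 10717116 to 10739002, minus strand) encodes a receptor that dampens antigen receptor signals in T cells and in some B cells. It had 0.755, 0.323, 0.436 and 0.675 CPM in MSCV lines and 0.522, 0.507, 0.304 and 0.769 in SFPQ-ABL1 lines. The BCR-ABL1 lines had 0.0944, 0.0959, 0.0456 and 0.139 CPM. MSCV and SFPQ-ABL1 lines covered the same range, and the BCR-ABL1 lines lay below both. Cd5 fell 5.75-fold in BCR-ABL1 against MSCV (log2 -2.52 ± 0.41 SE, adjusted p = 0.000627) and was 5.49-fold higher in SFPQ-ABL1 than in BCR-ABL1 (log2 2.46 ± 0.41, adjusted p = 0.00118). Between SFPQ-ABL1 and MSCV the difference was -0.07 ± 0.35 in log2 (adjusted p = 0.944). Exon counts lay on 8 of 11 exons, among them exon 1 with 12 counts. The neighbour Vps37c had 15.5, 13.3 and 16.8 CPM in MSCV, BCR-ABL1 and SFPQ-ABL1 lines (BCR-ABL1 against MSCV adjusted p = 0.133), and Cd6, a related receptor gene on the other side, had 5 counts in all.

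Tcf7 (ENSMUSG00000000782, chromosome 11, 52252371 to 52283014, minus strand), which encodes TCF-1, had the largest fold difference of the 5 tested genes in BCR-ABL1 against MSCV. It had 0.881, 2.27, 1.67 and 3.30 CPM in MSCV lines, 0.216, 0.0548, 0.0911 and 0.0775 in BCR-ABL1 lines, and 0.375, 0.702, 1.20 and 0.867 in SFPQ-ABL1 lines. The BCR-ABL1 lines lay below all others, and the SFPQ-ABL1 lines lay mostly under the MSCV lines with an overlap. Tcf7 fell 18.0-fold in BCR-ABL1 against MSCV (log2 -4.17 ± 0.53 SE, adjusted p = 0.000121). It was 7.02-fold higher in SFPQ-ABL1 than in BCR-ABL1 (log2 2.81 ± 0.52, adjusted p = 0.00216). Both folds rest on 16, 4, 6 and 5 counts in BCR-ABL1 lines 1 to 4, so counting error is large. The log2 difference between BCR-ABL1 and MSCV was -3.84 without MSCV line 4 and -4.75 without BCR-ABL1 line 1. Against MSCV the SFPQ-ABL1 difference of -1.36 ± 0.44 in log2 did not pass (adjusted p = 0.126), although it did with DESeq2 (adjusted p = 0.0390).

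Of the 59 exon counts on the first-named Tcf7 transcript, 53 (89.8%) lay on the last exon, which makes up 64.4% of its length. Exons 1 to 5 had 0 counts. They are 18 to 125 bases long, against 1592 for exon 10. At so few exon counts, 0 on short exons does not tell whether they were transcribed. The neighbour Skp1a, 5512 bases away, moved the same way with a smaller size (272, 194 and 292 CPM in MSCV, BCR-ABL1 and SFPQ-ABL1, log2 -0.49, adjusted p = 0.00106 for BCR-ABL1 against MSCV). Vdac1 on the other side moved the opposite way (log2 0.45, adjusted p = 0.00530).

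**Figure D3:**
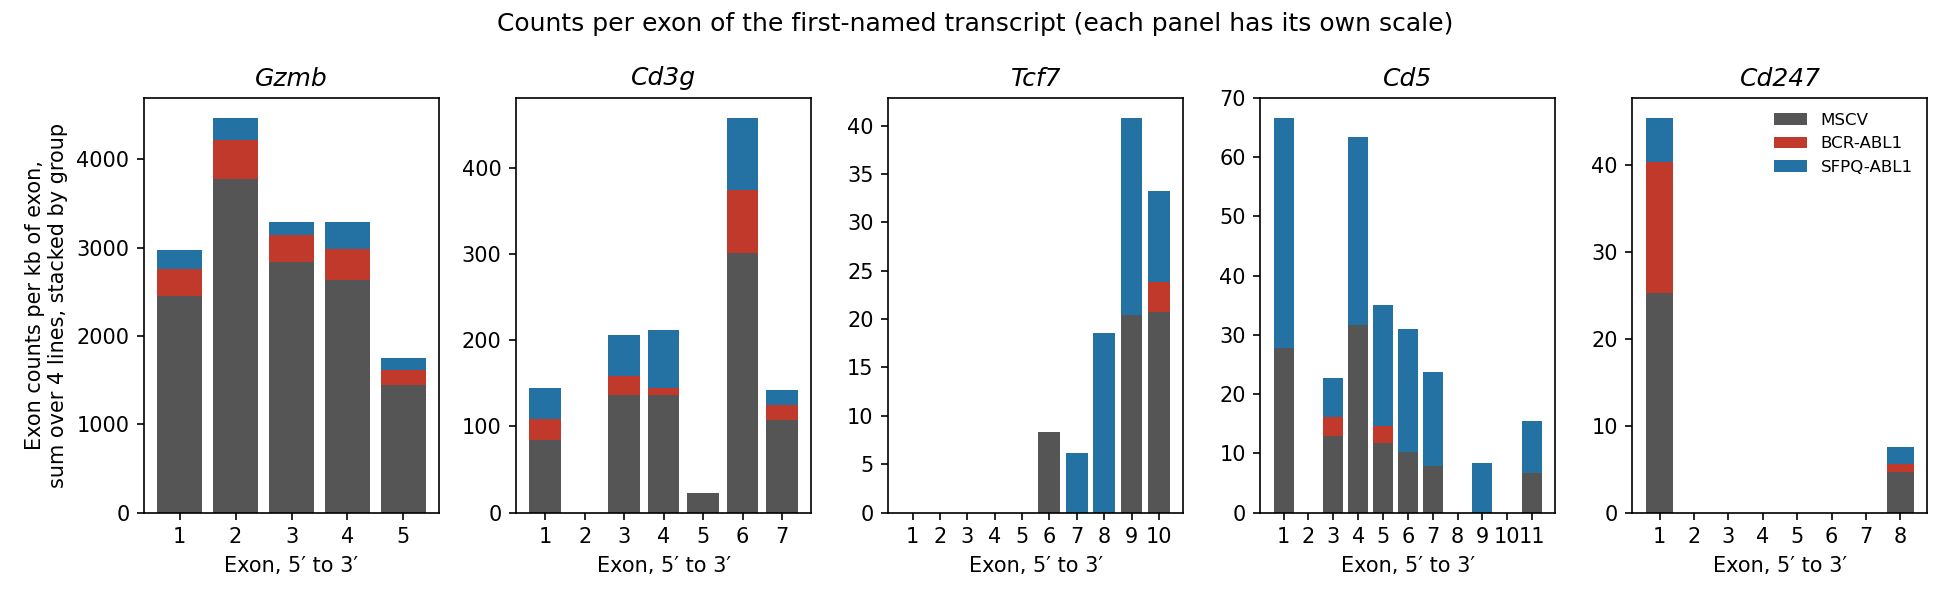
Exon counts per kilobase of exon, summed over the 4 lines of a group and stacked by group, for each exon of the first-named transcript of the 5 tested genes. Gzmb has counts on 5 of 5 exons and Cd3g on 6 of 7, Tcf7 has them on exons 6 to 10, and Cd247 has 0 on exons 2 to 7.

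Lef1 (ENSMUSG00000027985, chromosome 3) and Gata3 (ENSMUSG00000015619, chromosome 2), the other T lineage transcription factors, were close to absent at this depth. Lef1 had 1 count, in BCR-ABL1 line 1, and 0 exon counts. Gata3 had 0, 5, 4 and 1 counts in MSCV lines, 1, 2, 1 and 1 in BCR-ABL1 lines and 2, 3, 1 and 0 in SFPQ-ABL1 lines. The groups overlapped, and with no filter the adjusted p of Gata3 was 0.608 for BCR-ABL1 against MSCV. With 3 counts as the floor of a group, a mean level of Lef1 up to 0.0102 CPM in MSCV or SFPQ-ABL1 lines could not have been told from 0.

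Gzmb (ENSMUSG00000015437, chromosome 14, 56258838 to 56262260, minus strand) had the highest level of the 8 genes and the widest spread between lines of 1 group. It had 111, 197, 28.5 and 234 CPM in MSCV lines 1 to 4. BCR-ABL1 lines had 11.1, 48.2, 0.850 and 17.8 CPM, and SFPQ-ABL1 lines had 1.29, 45.6, 4.31 and 23.6. Lines 2 and 4 were above lines 1 and 3 in each of the 3 groups, and the fold between highest and lowest line was 8.20 in MSCV, 56.7 in BCR-ABL1 and 35.5 in SFPQ-ABL1. The MSCV lines other than line 3 were above all 8 fusion lines, and line 3 was below the highest line of each fusion group. Group means were 142 ± 91.8, 19.5 ± 20.4 and 18.7 ± 20.5 CPM (SD, n = 4) in MSCV, BCR-ABL1 and SFPQ-ABL1.

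The difference of Gzmb from MSCV did not pass the test for BCR-ABL1 (log2 -2.87 ± 1.09 SE, adjusted p = 0.0608) or for SFPQ-ABL1 (log2 -2.93 ± 1.10, adjusted p = 0.174). The 2 fusion groups differed by -0.06 ± 1.03 in log2 (adjusted p = 0.973). The BCR-ABL1 value lay near the threshold. Its adjusted p was 0.0228 with no filter, 0.0360 with DESeq2, 0.0337 with limma-voom (log2 -3.50) and 0.0374 with only the 8 libraries compared. Without MSCV line 3, BCR-ABL1 line 2 (log2 -3.84), SFPQ-ABL1 line 1 or SFPQ-ABL1 line 2 it was 0.0372 to 0.04998. Without any of the other lines it did not pass, from 0.0606 without SFPQ-ABL1 line 3 to 0.125 without BCR-ABL1 line 1. With other scaling it was 0.0599 or 0.0624. Without SFPQ-ABL1 line 2 the difference between SFPQ-ABL1 and MSCV was -3.89 in log2 (adjusted p = 0.117). With line number as a block in the edgeR fit, both differences from MSCV passed (adjusted p = 0.00212 for BCR-ABL1 and 0.0209 for SFPQ-ABL1). The labels do not pair lines by number. The 3736 exon counts of Gzmb lay on 5 of 5 exons, from 448 on exon 3 to 1273 on exon 5. Per kilobase of exon its MSCV mean was 99.2 CPM, against 2.12 for Cd3g, 0.773 for Tcf7, 0.111 for Cd5 and 0.0694 for Cd247.

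Set beside all genes tested, 32.1% were called between BCR-ABL1 and MSCV, 15.8% higher and 16.3% lower. Of the 8 genes, 5 were tested, 4 were called lower and 0 higher, and lines did not overlap for 4, where 31.6% of all genes had no overlap. Between SFPQ-ABL1 and BCR-ABL1, 26.0% of all genes were called, 13.2% higher and 12.8% lower. There 4 of the tested genes were called higher and 0 lower, with no overlap for 4 against 27.9% of all genes. Between SFPQ-ABL1 and MSCV only 1.79% of all genes were called, 0.814% higher and 0.977% lower, and 0 of the 5 tested genes were. Lines overlapped for each of the 5 there, where 11.2% of all genes had no overlap. In that comparison 3 of them (Cd3g, Tcf7 and Gzmb) had an unadjusted edgeR p under 0.05, DESeq2 called 1 and limma-voom called 0. An edgeR fit with line number as a block called 1 of them (Gzmb) and 726 genes in all.

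The median log2 fold change of the 5 tested genes was -2.87 in BCR-ABL1 against MSCV, -1.30 in SFPQ-ABL1 against MSCV and 1.69 in SFPQ-ABL1 against BCR-ABL1. Over all genes tested it was -0.01, -0.00 and 0.01. Of the medians of the 5 genes, -2.87 is the value of Gzmb, which was not called, and -1.30 and 1.69 are those of Cd3g. Because Cd247, Cd5 and Tcf7 passed the filter through their MSCV and SFPQ-ABL1 lines, these medians are a description only. The 3 comparisons share groups, so these values are given side by side and are not independent. The count between SFPQ-ABL1 and BCR-ABL1 fell to 2 genes, Cd5 and Tcf7, without BCR-ABL1 line 3, BCR-ABL1 line 4 or SFPQ-ABL1 line 3. All genes called in that comparison ran from 3161 to 5026 over single lines left out, against 4471 with every line. Leaving out SFPQ-ABL1 line 2, which had the lowest Abl1 exon 9 level of the fusion lines, kept Cd5, Tcf7 and Cd247 called there.

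**Figure D4:**
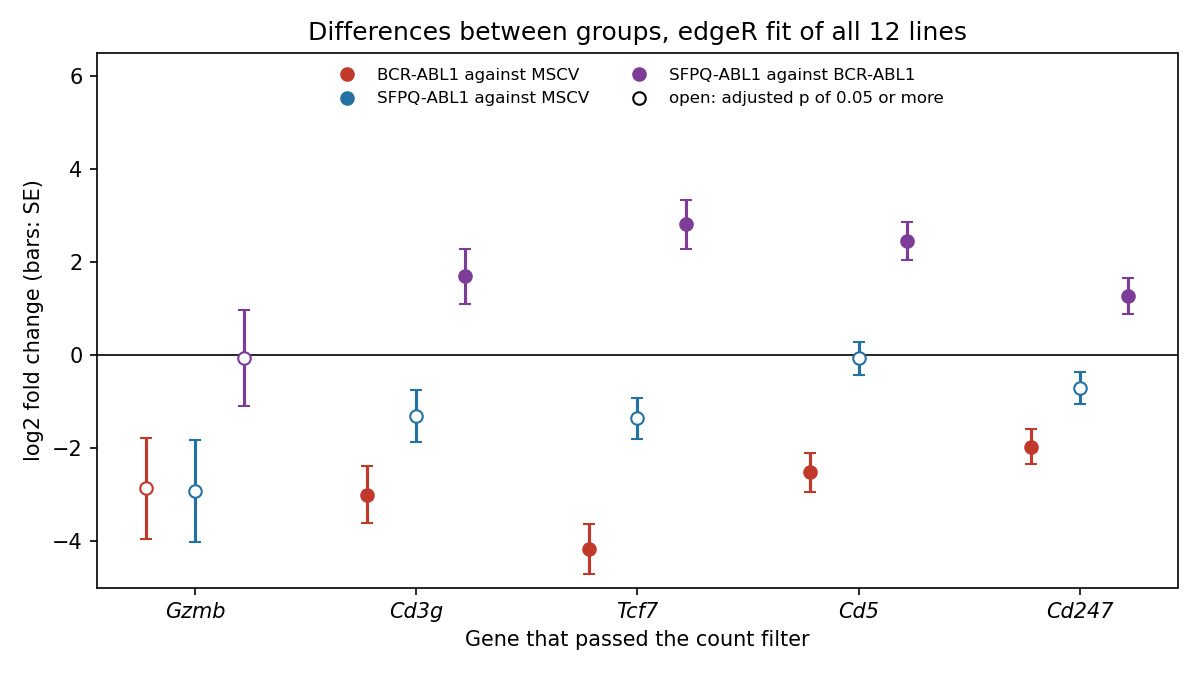
Log2 fold change with its SE for the 5 tested genes in the 3 comparisons, from the edgeR fit of 12 lines. Filled points have an adjusted p under 0.05. The red points of Cd3g, Tcf7, Cd5 and Cd247 lie between -1.97 and -4.17, the purple points of the same genes between 1.27 and 2.81, and no blue point is filled.

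A list of 21 CD3 genes, receptor chain genes, co-receptors and costimulatory receptors, which holds no gamma chain constant genes, was read beside them. Of these 21 genes 12 had at most 3 counts in any line. Among the antigen-binding chains, the beta chain genes Trbc1 and Trbc2 had 0 counts in all 12 lines, Trac of the alpha chain had at most 7 in any line and Trdc of the delta chain at most 2. Cd8a and Cd2 also had 0 in all lines. Only 5 were tested, of which Cd3g, Cd3d, Cd247 and Cd5 fell in BCR-ABL1 against MSCV and Cd27, a costimulatory receptor gene, did not pass (0.282 and 0.471 CPM in MSCV and BCR-ABL1, adjusted p = 0.184). The summed level of the 21 genes was 4.62 to 15.1 CPM in MSCV lines, 0.972 to 3.28 in BCR-ABL1 lines and 3.32 to 5.87 in SFPQ-ABL1 lines. Cd3g alone had 2.69 to 13.1 CPM in MSCV lines, 0.197 to 1.96 in BCR-ABL1 lines and 2.05 to 3.89 in SFPQ-ABL1 lines. The sum therefore repeats much of the Cd3g result.

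Genes of signalling next to the receptor were present at higher levels and did not share one direction. Of 31 listed genes 30 were found and 21 tested, with 5 higher and 2 lower in BCR-ABL1 against MSCV, 1 higher and 0 lower in SFPQ-ABL1 against MSCV, and 2 higher and 5 lower in SFPQ-ABL1 against BCR-ABL1. The share called was 33.3% in BCR-ABL1 against MSCV, near the 32.1% of all genes tested. It was 4.76% in SFPQ-ABL1 against MSCV, beside 1.79%, and 33.3% in SFPQ-ABL1 against BCR-ABL1, beside 26.0%. Lat, the membrane scaffold that assembles signalling proteins after the receptor is engaged, rose in BCR-ABL1 to 10.7 ± 2.90 CPM from 3.22 ± 1.30 in MSCV (log2 1.73, adjusted p = 0.00112). It was 2.05 ± 0.661 CPM in SFPQ-ABL1 (log2 -2.38 against BCR-ABL1, adjusted p = 0.000314). Fyb, an adaptor that links the receptor to adhesion, rose from 122 to 222 CPM in BCR-ABL1 (log2 0.87, adjusted p = 0.00147), and Ubash3b, a phosphatase gene, from 52.3 to 90.8 (log2 0.79, adjusted p = 0.000434). Pag1, an adaptor that brings the inhibitory kinase Csk to the membrane, was the 1 gene higher in SFPQ-ABL1 than in MSCV (25.1 and 17.1 CPM, log2 0.56, adjusted p = 0.0347). Lat thus moved in the opposite direction to Cd3g, Cd247 and Cd5 in both comparisons with BCR-ABL1.

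Of 28 transcription factors of the T lineage, 13 were tested and 9 had at most 3 counts in any line. In BCR-ABL1 against MSCV 3 were higher and 4, Tcf7 among them, were lower, in SFPQ-ABL1 against BCR-ABL1 5 were higher and 4 lower, and in SFPQ-ABL1 against MSCV 0 passed. In BCR-ABL1 against MSCV 53.8% were called, beside 32.1% of all genes tested, and in SFPQ-ABL1 against BCR-ABL1 69.2%, beside 26.0%. Notch1, the receptor whose signal precedes Tcf7 in thymus precursors, fell from 17.3 ± 6.04 CPM in MSCV to 6.61 ± 0.831 in BCR-ABL1 (log2 -1.38, adjusted p = 0.000629). Runx1, which acts in many blood lineages, fell from 216 to 133 CPM (log2 -0.70, adjusted p = 0.000124). Id2, an inhibitor of E proteins that is needed for NK cells, rose from 16.7 ± 4.12 to 59.3 ± 21.1 CPM (log2 1.83, adjusted p = 0.000886) and was 10.98 ± 4.25 in SFPQ-ABL1.

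Among 26 genes of TCF/LEF partners and the Wnt pathway, 25 were found and 18 tested, with 5 higher and 6 lower in BCR-ABL1 against MSCV, 0 in SFPQ-ABL1 against MSCV, and 2 higher and 2 lower in SFPQ-ABL1 against BCR-ABL1. The share called in BCR-ABL1 against MSCV was 61.1%, beside 32.1% of all genes tested, and in SFPQ-ABL1 against BCR-ABL1 22.2%, beside 26.0%. Ctnnb1, which encodes beta-catenin, was the most abundant of them at 662 CPM over all lines, and its level was 731 in MSCV and 578 in BCR-ABL1 lines (log2 -0.34, adjusted p = 0.0151). Csnk1a1 and Gsk3b, kinases that mark beta-catenin for removal, rose in BCR-ABL1 (355 to 496 CPM, adjusted p = 0.000536, and 103 to 153 CPM, adjusted p = 0.00166). The differences of these 3 genes were each under 1 log2 unit, where that of Tcf7 was -4.17.

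Granule genes were measured beside Gzmb, while perforin and most other granzyme genes had no counts. Of 38 NK and cytotoxic cell genes, 18 had at most 3 counts in any line, and Prf1 (perforin), Gzma, Gzmd, Gzme, Gzmf, Gzmg, Gzmk, Gzmn, Ncr1 and Ifng had 0 in all 12 lines. Gzmc, the next granzyme gene on the chromosome, had 0.209 ± 0.149, 0.202 ± 0.288 and 0.0212 ± 0.0257 CPM in MSCV, BCR-ABL1 and SFPQ-ABL1 lines. Of 17 tested genes of this list 1 was higher and 5 were lower in BCR-ABL1 against MSCV, 1 and 1 in SFPQ-ABL1 against MSCV, and 3 and 2 in SFPQ-ABL1 against BCR-ABL1. In BCR-ABL1 against MSCV 35.3% were called, near the 32.1% of all genes tested. The share was 11.8% in SFPQ-ABL1 against MSCV, beside 1.79%, and 29.4% in SFPQ-ABL1 against BCR-ABL1, beside 26.0%. Ctsc, which encodes the protease that activates granzymes (cathepsin C), had 264 ± 46.7 CPM in MSCV, 310.5 ± 45.4 in BCR-ABL1 and 489 ± 119.8 in SFPQ-ABL1 lines (SD, n = 4) and was higher in SFPQ-ABL1 than in MSCV (log2 0.89, adjusted p = 0.0350). Cst7, which encodes cystatin F, an inhibitor of cathepsin C, fell from 47.2 ± 13.2 CPM in MSCV to 8.20 ± 1.55 in BCR-ABL1 (log2 -2.52, adjusted p = 1.3e-05) and was 35.3 ± 5.64 in SFPQ-ABL1. Srgn, which encodes serglycin, the granule proteoglycan that holds granzymes, fell from 922 to 516 CPM in BCR-ABL1 (log2 -0.84, adjusted p = 0.00109). Il2rb, a receptor chain for IL-2 and IL-15, rose from 5.96 ± 2.28 to 22.5 ± 6.44 CPM (log2 1.92, adjusted p = 0.00394).

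The median log2 fold change in BCR-ABL1 against MSCV was -1.97 for the receptor list, 0.12 for receptor signalling, -0.17 for T lineage transcription factors, -0.02 for the Wnt list and -0.22 for NK and cytotoxic cell genes, beside -0.01 for all genes tested. The median of the receptor list is the value of Cd247, and 3 of its 5 tested genes are among the 8 described here, so it adds nothing to their own values.

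Markers of other cell types were read beside these results, where 16.3% of all genes tested were lower and 15.8% higher in BCR-ABL1 against MSCV. In SFPQ-ABL1 against BCR-ABL1, 13.2% of all genes tested were higher and 12.8% lower. Of 14 granulocyte and monocyte markers 8 were tested, with 4 lower and 1 higher in BCR-ABL1 against MSCV and 4 higher in SFPQ-ABL1 against BCR-ABL1. Their summed level was 525 to 1206 CPM in MSCV lines, 245 to 436 in BCR-ABL1 lines and 586 to 906 in SFPQ-ABL1 lines, with Cebpa at 0 in all lines. Of 10 erythroid markers 3 were lower in BCR-ABL1 against MSCV and 5 were higher and 1 lower in SFPQ-ABL1 against BCR-ABL1. Their summed level was 628 to 1562 CPM in MSCV, 526 to 871 in BCR-ABL1 and 842 to 1891 in SFPQ-ABL1 lines. Each pair of groups overlapped in this sum. Of 8 tested early B-lineage markers 4 were lower and 1 higher in BCR-ABL1 against MSCV, with Cd79a and Cd79b among the lower (log2 -1.14 and -1.27). Of 10 fibroblast and stromal markers 3 were tested, and Col5a1 was the 1 that fell in BCR-ABL1 against MSCV (979 and 236 CPM in MSCV and BCR-ABL1). Of 15 mast cell and basophil markers 8 were tested, with 2 higher and 3 lower in BCR-ABL1 against MSCV, and the lines of both groups overlapped in their sum (1377 to 1686 and 1354 to 1598 CPM). The part of these markers in the results for Cd3g, Cd247, Cd5 and Tcf7 was not tested.

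The genes most like each tested gene in their pattern are named by the Pearson correlation of log2 CPM over the 12 lines, among about 10520 protein-coding genes with a mean of at least 1 CPM. The lines share the group differences, so r is also given for deviations from group means. For Tcf7 these were Adck2 (r = 0.980, deviations 0.942) and Cxcr4 (0.976, deviations 0.800). Cxcr4 had 432, 87.9 and 249.5 CPM in MSCV, BCR-ABL1 and SFPQ-ABL1 lines, the order of Tcf7. For Cd5 they were Insig1 (r = 0.974, deviations 0.830) and Dap (0.966, deviations 0.757), for Cd3g Wdr1 (0.951, deviations 0.827) and Rdh12 (0.947, deviations 0.807), and for Cd247 Fcer1g (0.937, deviations 0.732) and Tmem50a (0.926, deviations 0.673). Insig1 had 63.6, 27.5 and 64.2 CPM, so its SFPQ-ABL1 and MSCV means lay together as for Cd5. Gzmb was most like Lmbr1l (r = 0.933, deviations 0.886) and H2-K1 (0.888, deviations 0.828).

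Among the tested genes themselves, r of log2 CPM was 0.857 between Cd3g and Tcf7 and 0.832 between Cd247 and Tcf7, and 0.444 between Cd247 and Gzmb. For 9 of 10 pairs the r of deviations from group means was lower than the r over all lines, and for Cd5 and Gzmb it was 0.480 beside 0.447. The r of deviations was 0.366 for Cd3g and Tcf7, 0.638 for Cd3g and Gzmb and -0.480 for Cd247 and Cd5, over the same 12 lines.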

How the data were processed

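Total RNA from 12 Ba/F3 lines was sequenced. The deposited tables hold unnormalized counts for Ensembl genes and exons. Per the submitters' processing notes the tools were Subread and featureCounts and the build mm10. No source used here gives tool versions, the annotation release or the use of strand. The exon table held 18.0% as many counts as the gene table, and the reads behind it are not described. Symbols, exons and coordinates came from GENCODE M21, which held 55230 of 55471 gene identifiers. Gene counts were fitted with edgeR 4.0.16 in R 4.3.3. There filterByExpr left 17197 genes, TMM factors scaled the libraries, and glmQLFit and glmQLFTest were fitted to all 12 lines with group as the term. Adjusted p (Benjamini-Hochberg over all genes tested, two-sided) under 0.05 was a call. CPM use effective library sizes, no molecular identifiers are described, and floors of 3 counts cover counting error only. The fit was tested on simulated data. Other tools were DESeq2 1.42.0 and limma-voom (limma 3.58.1), beside other scaling, no filter, fewer libraries and leaving out each line. The 18 pairs of lines within groups differed by more than sampling noise (chi-square per degree of freedom 33.1 to 182). Genes named beside the 8 were, per list and comparison, up to 3 with the smallest adjusted p, the 3 most abundant genes of a list, chromosome neighbours and the 2 most similar patterns. Gm16565, Gm48719 and the genes listed as absent or nearly so were named after their values were seen. The 8 genes and the lists were chosen with earlier results of these data known.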

Additional observations from a re-analysis of the deposited data

Results flagged for a closer look

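In 58 groups of 4 lines, the members and 12 further genes were examined for a line far from the other 3. Dixon's test took the gap to the nearest line over the whole range. Chance gives such a line in about 1 of 20 groups of normally distributed values. That rate does not hold near 0 counts, where 1 count in a single line beside 0 in the others is always flagged. There were 6 flagged lines. Among the members, SFPQ-ABL1 line 4 had 0.0164 CPM of Cd3e where the other 3 lines had 0, BCR-ABL1 line 1 had 0.0135 CPM of Lef1 where the others had 0, and BCR-ABL1 line 2 had 0.0274 CPM of Gata3 where the others had 0.0135 to 0.0155. Each of these rests on 1 or 2 counts. Among the other genes, BCR-ABL1 line 2 had 0.630 CPM of Gzmc where the others had 0.0152 to 0.108, and it also had the highest Gzmb level of its group. BCR-ABL1 line 1 had 3.48 CPM of Gzmm where the others had 0.898 to 1.34. SFPQ-ABL1 line 2 had 4.74 CPM of Nkg7, a cytotoxic granule gene, where the others had 18.3 to 19.7, and this was the line with the lowest Abl1 exon 9 level of its group.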

How the results depend on the processing

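Cd3g, Cd247, Cd5 and Tcf7 stayed lower in BCR-ABL1 than in MSCV, past the threshold, under each of 7 settings and without each of 12 lines. The number of members called was 4 to 5 over single lines left out there, 0 to 0 in SFPQ-ABL1 against MSCV and 2 to 4 in SFPQ-ABL1 against BCR-ABL1. All genes called ran from 4474 to 5645 in BCR-ABL1 against MSCV (5522 with every line) and from 3161 to 5026 in SFPQ-ABL1 against BCR-ABL1 (4471). In SFPQ-ABL1 against MSCV, DESeq2 called 1 member (Tcf7) and 1131 genes in all, against 308. The latter was 110 with 8 libraries and 33 to 467 over single lines left out. Line numbers do not pair lines in the labels. Deviations of same-numbered lines correlated at -0.00632 to 0.385, with 7 of 12 pairs above 0.1. Those of different-numbered lines from different groups correlated at -0.347 to 0.228, with 6 of 36 pairs above 0.1. Of 12 lines, 9 correlated best with their own number. With a replicate block Gzmb passed against MSCV in BCR-ABL1 (adjusted p = 0.00212, range over alternatives to 0.125) and in SFPQ-ABL1 (0.0209, to 0.320), so 1 member was called in the latter, where 726 genes were. Its difference between the fusions in log2 was 0.017 with the block, -1.01 to 0.91 over single lines left out, 0.91 without BCR-ABL1 line 2, 0.33 without SFPQ-ABL1 line 1 and 0.27 without SFPQ-ABL1 line 3. For Cd5, SFPQ-ABL1 against MSCV ran from -0.31 to 0.14 and turned to 0.14 without MSCV line 1, 0.05 without MSCV line 4 and 0.12 without SFPQ-ABL1 line 3. None of these reversed values passed the test. Without normalization factors the share of calls that were higher went from 45.5% to 64.8% in SFPQ-ABL1 against MSCV and from 50.7% to 61.9% in SFPQ-ABL1 against BCR-ABL1. The causes were not tested. Cd247 and Cd5 had 3 to 9 counts in BCR-ABL1 lines and Tcf7 had 4 to 16, so counting error is large there.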

Other observations

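Lck, Zap70 and Gzmc were chosen here after their values were seen. Lck, the kinase that phosphorylates the CD3 tails, had 7.56 to 9.59 CPM in MSCV lines, 8.34 to 12.997 in BCR-ABL1 lines and 6.85 to 13.3 in SFPQ-ABL1 lines, and its difference between BCR-ABL1 and MSCV did not pass the test (edgeR adjusted p = 0.105). Zap70, the kinase recruited to those tails, had at most 6 counts in any line. Gzmc counts were 18, 26, 0 and 17 in MSCV lines, 4, 46, 1 and 7 in BCR-ABL1 lines and 0, 4, 0 and 2 in SFPQ-ABL1 lines, and line 3 held 1 count or fewer in each group.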
